A study of Strongylocentrotus purpuratus with 8 samples.

Results

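CpG-poor windows that were methylated at every stage examined were described in the genome of the purple sea urchin, Strongylocentrotus purpuratus. The genome was divided into 500 bp windows, and a window was called CpG-poor when 4 to 7 CpG sites in it were listed in any library. A CpG-poor window was kept when each of 8 libraries had at least 20 reads in it and a methylation level of 80% or more. These conditions were met by 5472 windows, here called stable CpG-poor windows, of 34429 CpG-poor windows with enough reads, 408546 CpG-poor windows in all and 1522405 windows of any CpG number. The windows were chosen by their levels in all 8 libraries, so those levels are given as a description and carry no test.

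The libraries came from embryos collected 24, 48 and 72 hours post fertilisation (hpf) and from adult tube feet. Tube feet are the appendages with which the animal walks and holds on to surfaces. Each of the 4 groups had 2 libraries, numbered as replicates in the titles. No treatment was applied, and no strain, genotype or adult age is given in the labels. Genomic DNA was converted with bisulfite, which turns unmethylated cytosine into a base read as thymine and leaves methylated cytosine read as cytosine. The embryo libraries are labelled by stage and the adult libraries come from 1 tissue, so stage and tissue cannot be told apart in any adult comparison, and a level between 0% and 100% cannot separate cells that differ from alleles that differ.

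Cytosine methylation in animals is found mainly at CpG sites and is copied to the new strand after replication by the maintenance methyltransferase DNMT1, which UHRF1 guides to hemimethylated sites. Methylated cytosine is prone to mutate to thymine, so sequence that is methylated in the germ line tends to lose CpG sites over evolutionary time. In sea urchins, as in many invertebrates, methylated stretches alternate with unmethylated ones along the genome, and the methylated stretches often lie in the bodies of transcribed genes. Whether the windows described here lie in genes was not analysed here, because the gene table used is of the Spur_5.0 assembly and the coordinates below are those of Spur3.1.

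The libraries held between 75377025 and 126381599 reads at CpG sites, a read being counted at each site it covers, and the unmethylated lambda phage spike-in read as methylated at 0.112% to 0.296% of reads. The second 24 hpf replicate stood apart. It had the fewest listed sites, 8652151 against up to 12366521, and a pooled level of 42.2% against 21.05% to 29.8% in the 7 other libraries. It alone kept 58142 of the 374117 CpG-poor windows with too few reads from being used, and without it the stable CpG-poor windows numbered 10772. Values compared between groups or classes of windows by a test are therefore also given without that library.

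At the 80% level, stable methylation was more frequent among CpG-poor windows with enough reads, here called usable, than among usable windows with more sites. The share of usable windows at 80% or more in all libraries was 14.4% with 4 sites (504 of 3505 windows), 16.5% with 5 sites (1127 of 6834), 16.04% with 6 sites (1676 of 10449) and 15.9% with 7 sites (2165 of 13641). Over all CpG-poor windows it was 15.9%, against 11.7% of the 170897 usable windows of 8 to 15 sites and 7.39% of the 162272 usable windows of 16 or more sites. At the other end, 15.1% of usable CpG-poor windows (5183) were at 20% or less in all libraries, compared with 51.9% of windows of 8 to 15 sites and 70.6% of windows of 16 or more. These shares move with the choice of libraries and minimums. Without 24 hpf replicate 2, stable methylation was found in 11.6% of usable CpG-poor windows, 7.97% of those of 8 to 15 sites and 6.46% of those of 16 or more, and 27.4% of usable CpG-poor windows were at 20% or less. With a minimum of 10 reads the stable shares were 11.7%, 8.65% and 6.51%, and with 40 reads 21.5%, 16.9% and 9.0%. At a level of 90% in place of 80% the order was lost, with 0.886%, 0.789% and 0.899%.

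Few CpG-poor windows could be judged. Only 8.43% of CpG-poor windows reached 20 reads in each library, from 3.36% of those with 4 sites to 13.8% of those with 7, against 29.1% of windows of 8 to 15 sites and 61.0% of windows of 16 or more. The windows admitted by the lower minimum of 10 reads, or without 24 hpf replicate 2, brought the stable share down as given above, and those still left out were not measured. Another 8146 CpG-poor windows were at 80% or more in all 6 embryo libraries but not in both adult libraries, and are called embryo-only windows below. Their mean level was 90.2% over the embryo libraries and 59.9% and 59.1% in the adult replicates, and most were partly methylated in the adult, with 78.5% and 81.9% of them between 20% and 80%. The other 15628 usable CpG-poor windows fell in none of these classes.

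Within the stable CpG-poor windows, the levels were high and narrowly spread in every library. Embryos of 24 hpf had medians of 92.2% and 92.4%, those of 48 hpf 89.6% and 90.6%, those of 72 hpf 92.4% and 91.7%, and the adult tissue 90% and 89.3%. The adult replicates and the 48 hpf replicates were the lower ones, and the 24 and 72 hpf libraries the higher ones. A level of exactly 100% was found in 0.804% to 7.36% of windows, most often in 24 hpf replicate 2, which also had the fewest reads per window, a median of 47 against 64 to 91 elsewhere. Replicates of a group differed in a window by a median of 3.42 to 3.99 points, depending on the group.

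**Figure D1:**
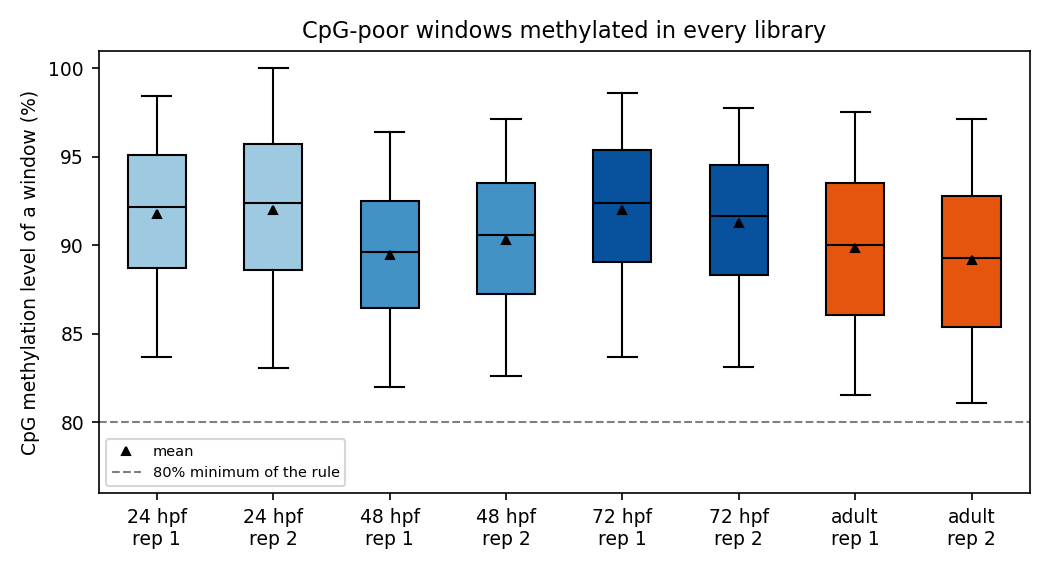
Methylation level, in percent of reads, of the 5472 stable CpG-poor windows in each of the 8 libraries. Boxes span the quartiles with the median as a line, whiskers reach the 5th and 95th percentiles, triangles are means, and the dashed line is the 80% minimum by which the windows were chosen; medians lie between 89.3% and 92.4%.

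The lowest of a window's 8 levels had a median of 84.1% and reached 95.8%. It was under 82% in 1472 windows and 90% or more in 305. The adult replicates gave the lowest level most often, in 1232 windows (22.5%) for replicate 2 and 986 (18.0%) for replicate 1, followed by 48 hpf replicate 1 in 889 (16.2%). The 80% minimum divides a continuum. The 1472 windows just inside it had mean levels of 90.04% (24 hpf), 87.95% (48 hpf), 89.9% (72 hpf) and 86.9% (adult). The 1278 windows just outside it, with a lowest level from 78% to under 80%, had 89.4%, 87.2%, 89.0% and 85.2% in the same order.

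The adult mean was slightly below the embryo mean in most of these windows, which were all required to be highly methylated in the adult. Not every embryo library was higher: adult replicate 1, with a mean level of 89.8%, lay above 48 hpf replicate 1, with 89.5%. The adult minus embryo difference of a window had a median of -1.47 points, with quartiles of -4.75 and 1.48 and a range from -16.5 to 14.9. The adult mean was the lower one in 3466 windows (63.3%). In 807 stable CpG-poor windows (14.7%) neither adult library reached any of the 6 embryo libraries, against 19.8% of all 367598 windows with 4 or more sites and enough reads. In 222 (4.06%) both adult libraries exceeded every embryo library, against 5.58% of all windows. The 80% minimum limits how far apart the groups can lie, so nothing is read from the median difference or from these shares.

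Differences between stable CpG-poor windows were shared between replicates of the adult tissue more than between embryo and adult. Across the 5472 windows, Pearson's r of the levels was 0.373 between the adult replicates, 0.182 to 0.300 between embryo libraries and 0.0592 to 0.109 between an embryo and an adult library. The points of these correlations share read depth and position, and the minimum of the rule narrows their range.

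The window whose lowest level was the highest was Scaffold385:14501-15000, with 6 CpG sites. Embryos of 24 hpf had a level of 97.5% and 96%, those of 48 hpf 97.3% and 97.2%, those of 72 hpf 96% and 96.5%, and the adult tissue 95.8% and 96.4%. The 8 values lie within the counting error of any one of them: from 25 to 75 reads stand behind each, and the Wilson 95% interval of the second 24 hpf replicate runs from 80.5% to 99.3%. Windows 1 to 5 kb away were less methylated, at a mean of 67.4% in the embryo libraries and 69.1% in the adult. The next by that measure was Scaffold286:32001-32500, also of 6 sites, between 95% and 98.8% in all libraries from 60 to 127 reads. Its surroundings were lower still, at 50.1% in embryos and 47.3% in the adult.

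Windows on either side of the minimum show the threshold itself. Scaffold27:602501-603000 had its lowest level, 80%, in adult replicate 2, and 95.2%, 81.2%, 86.8%, 92.3%, 86.4%, 89.2% and 84.8% in the libraries before it, from 24 hpf replicate 1 to adult replicate 1. Scaffold849:54501-55000 had 80% in 24 hpf replicate 1 and its highest level, 96.3%, in adult replicate 1. Just outside lay Scaffold458:382501-383000, at 79.9% in 24 hpf replicate 2 and 96.3% in adult replicate 2, and Scaffold3077:19501-20000, at 79.9% in 48 hpf replicate 1 and 95.1% in adult replicate 1. Both windows outside fell short of 80% by less than 1 read in their lowest library.

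A few stable windows leaned towards one side of the life cycle. Among the 1328 with at least 50 reads in each library, Scaffold33:271501-272000 was the most methylated in the adult relative to the embryos. At 24 hpf its level was 80.3% and 80.99%, at 48 hpf 84.9% and 87.6%, and at 72 hpf 83.2% and 86.7%. The adult replicates, with 98.3% and 92.6%, had a mean 11.5 points above the embryo mean of 83.9% ± 2.98 (SD, n = 6). Both adult libraries lay above all embryo libraries. Its 7 sites were uneven in the embryos. The sites at 271698 and 271719 had 0 adult reads, and 8 of 11 and 0 of 2 embryo reads methylated, so the adult level rests on the other sites. The site at position 271551 was methylated in 70 of 127 embryo reads (55.1%) and 23 of 24 adult reads (95.8%), and the site at 271531 in 140 of 186 embryo reads (75.3%) and 23 of 24 adult reads, whereas the site at 271572 was methylated in 153 of 157 embryo reads and 22 of 22 adult reads. In Scaffold521:108001-108500, the adult level was 95.96% ± 0.268 (SD, n = 2) and the embryo level 85.6% ± 4.62 (SD, n = 6), a difference of 10.4 points. In that window the site at 108017 had 65% of 120 embryo reads and 92.3% of 26 adult reads methylated.

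At the opposite end, Scaffold26:200501-201000 was the window with the lowest adult level relative to the embryos. At 24 hpf its level was 92.9% and 100%, at 48 hpf 97.03% and 96.4%, and at 72 hpf 98.2% and 96.4%. The adult replicates had 84.03% and 81.4%, a difference of -14.1 points between the adult and embryo means. The groups did not overlap. Its flanks differed in the same direction, with a mean of 89.5% in embryos and 71.4% in the adult over 6 windows. In Scaffold144:292001-292500 the difference was -13.1 points, from 95.5% ± 2.48 (SD, n = 6) to 82.4% ± 0.0730 (SD, n = 2). These 4 windows were picked as the extremes of the difference and are described, not tested.

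The most deeply read window, Scaffold457:62501-63000, carried unequal depth between groups. It had 119 to 1036 reads in the embryo libraries and 3243 and 3393 in the adult, and a level of 94.6%, 92.4%, 93.8%, 94.8%, 94.4% and 94.3% in embryos against 83.5% and 83.6% in the adult. Most reads of both the embryo and the adult libraries fell on the same 3 of its 5 sites. The part of depth in the levels was not tested. The second, Scaffold1194:122001-122500, had 650 to 1048 reads in every library and levels from 82.6% to 91.3%, the lowest in adult replicate 2 and the highest in 24 hpf replicate 2.

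Single sites make up the window levels by which the windows were chosen and are described only. The windows held 32862 CpG sites, of which 86.4% were listed in all libraries, against 79.3% of the sites of unmethylated CpG-poor windows. Neighbouring sites lay a median of 33 bp apart and the outermost sites of a window 314 bp apart. At least 10 reads in every library were available for 5205 sites (15.8%), and 3562 of those (68.4%) were at 80% or more in every library. The share of these sites between 20% and 80% was 4.78% to 8.11% in the embryo libraries and 8.32% and 9.95% in the adult replicates, which were the highest.

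The 80% minimum of a window limits how many of its sites can be low. A level of 20% or less in some library was found at 3 of the 5205 sites, and at 66 of the 17456 sites with 5 or more reads in every library. The clearest was at position 169829 of Scaffold518, methylated in 0 of 10 reads and 1 of 10 reads in the adult replicates and at a median of 90% over the libraries other than the one read. With 10 reads, a count of 0 allows a level of up to 30%, for counting error only. A range of 50 points or more over libraries was seen at 61 of the 5205 sites (1.17%) and at 537 of the 17456 (3.08%). Both adult libraries lay at least 30 points below every embryo library at 12 of the 5205 sites. They lay at least 30 points above every embryo library at 0 of the 5205 sites, which allows a share of up to 0.0576% if sites were independent. Mean levels of the 5205 sites were 90.6% to 93.3% in the embryo libraries, which leaves little room for such a rise. Nothing is read from the 12 sites against 0.

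To measure stability in libraries that had no part in the choice, CpG-poor windows were chosen at 80% or more in all libraries of 3 groups and their level was read in the fourth. The level stayed near 90% in each embryonic stage and was lower in both adult libraries. Windows chosen without the group measured were on average 91.1% ± 0.183 methylated when 24 hpf was left out (5978 windows), 89.1% ± 0.597 for 48 hpf (6065 windows), 91.1% ± 0.561 for 72 hpf (5765 windows) and 71.6% ± 0.532 for adult tube feet (13618 windows; all SD, n = 2 libraries). The 6 embryo libraries lay between 88.6% and 91.5% and the adult libraries at 71.96% and 71.2%, so the groups did not overlap. The difference between the adult and the embryo mean was -18.8 points (two-sided exact permutation test over 28 arrangements, p = 0.0357, the smallest it can give; 0.051 after Benjamini-Hochberg adjustment over the 10 tests made here). With 2 adult and 6 embryo libraries no adult comparison can give a smaller p, and none of the 5 made in this way passed 0.05 after adjustment. Without 24 hpf replicate 2 the difference was -18.6 points. The adult was read on windows chosen on embryos alone, and each embryonic stage on windows that were also at 80% or more in the adult. The values thus rest on unlike sets of windows, and the exact p does not set the groups against each other on equal terms.

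The share of these windows that kept 80% or more showed the same contrast. Of the windows chosen without 24 hpf, 96.96% and 94.1% kept it in the replicates of that stage. For 48 hpf the share was 94.4% and 94.95%, for 72 hpf 97.48% and 97.1%, and for the adult tissue 49.1% and 46.9%. The adult share differed by -47.8 points from the embryo share of 95.8% ± 1.49 (SD, n = 6; two-sided exact permutation test, p = 0.0357, adjusted 0.051), and -48.6 points without 24 hpf replicate 2. The comparison is not symmetric, because windows for an embryonic stage were chosen partly on the adult, while windows for the adult were chosen on embryos alone. When each library was measured on windows chosen with the 7 other libraries, its own replicate included, the adult minus embryo difference was -3.58 points in level and -12.5 points in share, with the same exact p.

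In both adult libraries CpG-poor windows were less methylated than windows of 8 to 15 sites chosen in the same way. The mean level of the latter was 90.3% ± 1.02 over the embryo libraries (SD, n = 6) and 75.2% ± 0.635 over the adult ones (SD, n = 2), and their share at 80% or more in the adult replicates was 57.1% and 54.4%. In the embryo libraries CpG-poor windows differed from them by -0.159 to 0.376 points, and the difference was -3.67 and -3.52 points in the adult replicates. The adult minus embryo change of CpG-poor windows relative to these was -3.67 points (two-sided exact permutation test on the per-library difference, p = 0.0357, adjusted 0.051). Among windows with a mean of 60 to 100 reads per window and library, it was -2.82 points, at a level of 90% in place of 80% it was -2.09 points, and without 24 hpf replicate 2 it was -3.62 points. Averaged over all 8 libraries, the levels of the 2 kinds differed by -0.842 points (two-sided exact sign-flip test, p = 0.414, adjusted 0.46), and by -1.19 points without 24 hpf replicate 2. For both kinds, the windows read in the adult were chosen on embryos alone and those read in embryos partly on the adult. The exact p of the change thus does not set the groups against each other on equal terms.

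**Figure D2:**
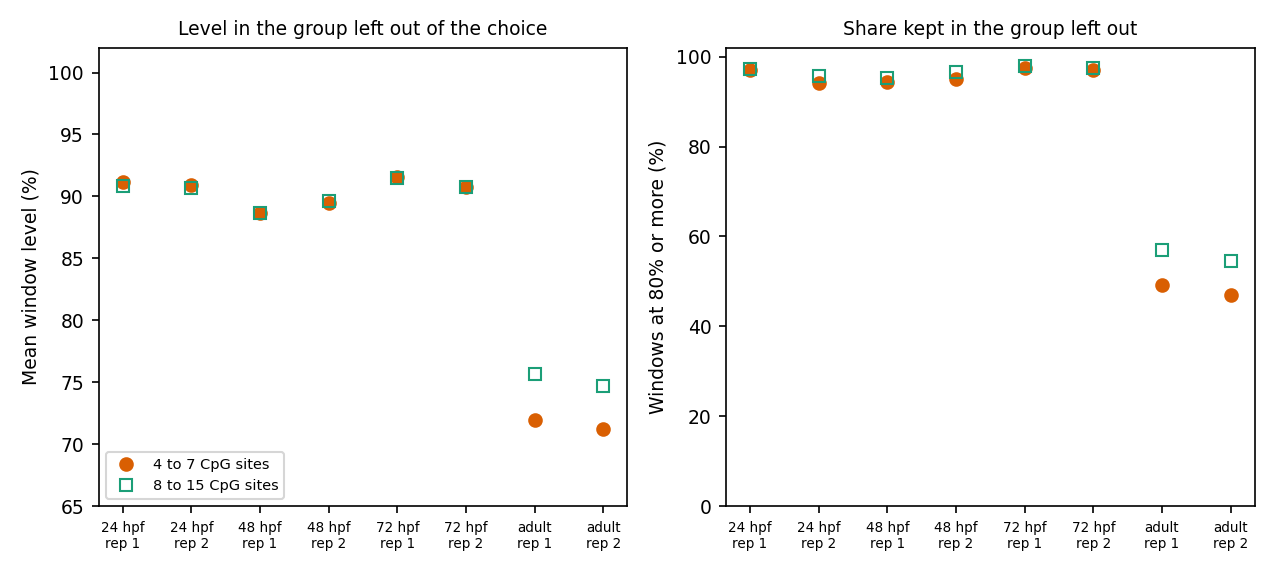
Left, mean methylation level in percent of windows chosen at 80% or more in all libraries of the 3 other groups, for each library; right, the percent of those windows at 80% or more. Filled circles are windows of 4 to 7 CpG sites and open squares windows of 8 to 15 sites; the adult libraries fall to 71.96% and 71.2% in level for CpG-poor windows, below the open squares, while the embryo libraries stay above 88%.

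Single CpG-poor windows that were lower in the adult were then counted. CpG-poor windows were chosen at 80% or more in the 4 libraries of 24 and 48 hpf, and adult tube feet were then compared with 72 hpf in a quasi-binomial logistic model fitted over all windows, with a call at a Benjamini-Hochberg adjusted p below 0.05 and at least 20 points. Of 14891 CpG-poor windows chosen, 4929 (33.1%) were called lower in the adult and 1 was called higher. Windows near 90% at 72 hpf leave little room for a rise of 20 points, so nothing is read from the number of higher calls. The background was 9.22% lower and 0.97% higher among all 367598 windows tested, and 24.8% lower among the 78936 windows of any CpG number chosen at 24 and 48 hpf. Mean levels of the chosen CpG-poor windows were 90.4% and 89.7% in the 72 hpf replicates and 70.98% and 70.3% in the adult replicates.

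Windows called lower had a median difference of -42.1 points, while the median over all chosen CpG-poor windows was -12.1 points. The share called lower was 35.3% with 4 sites, 32.6% with 5, 33.3% with 6 and 32.6% with 7, against 26.4% with 8 to 15 and 14.98% with 16 or more. With a mean of 20 to 60, 60 to 100 and 100 or more reads per window and library, 33.1%, 33.6% and 31.7% of CpG-poor windows were called lower, against 25.4%, 27.4% and 26.0% of windows of 8 to 15 sites. Reads per site were not matched in these bands. The stable CpG-poor windows make up 36.7% of the 14891. None of them was called in either direction, which the 80% minimum in the adult brings about by itself. With limma on log2 ratios of methylated to unmethylated reads 24.5% of the chosen CpG-poor windows were called lower, and without 24 hpf replicate 2 33.5% (10643 of 31771).

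**Figure D3:**
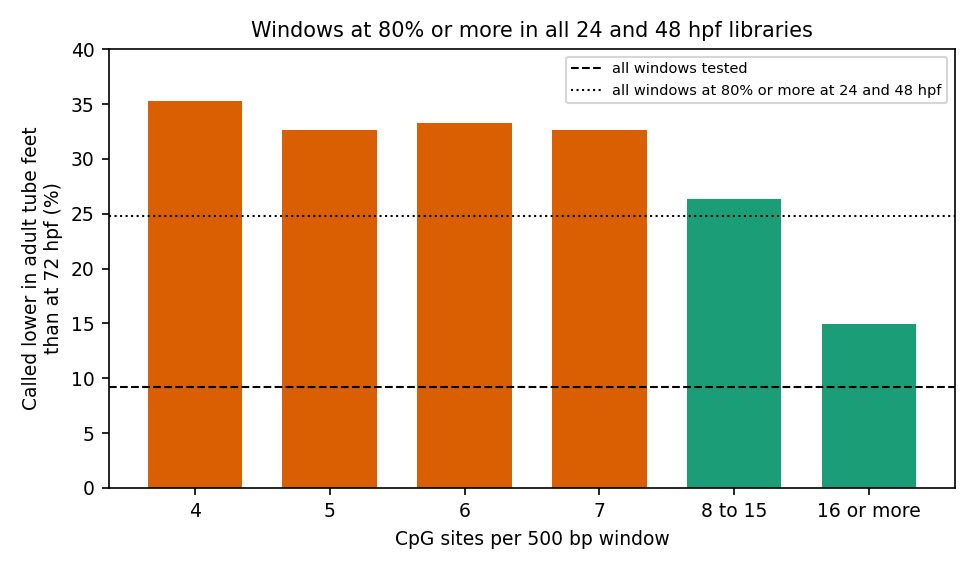
Percent of windows called lower in adult tube feet than at 72 hpf, by the number of CpG sites in the 500 bp window, among windows at 80% or more in all 24 and 48 hpf libraries. The dashed line is the 9.22% of all windows tested and the dotted line the 24.8% of all windows so chosen; bars of 4 to 7 sites stand at 32.6% to 35.3%, above both lines.

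Stable CpG-poor windows were spread over the assembly. They lay on 1427 of the 3415 scaffolds that had a usable CpG-poor window, with a median of 2 per scaffold and a single one on 514 scaffolds. Scaffold5 held the most, 34 of 159 usable CpG-poor windows (21.4%), followed by Scaffold329 with 32 of 166 (19.3%) and Scaffold28 with 30 of 126 (23.8%). Another stable CpG-poor window lay within 5 kb of 2301 of them (42.1%). Most had no stable CpG-poor neighbour directly beside them: 4915 stood alone, and there were 237 runs of 2, 22 runs of 3, 3 runs of 4 and 1 run of 5 adjacent windows.

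The run of 5 was Scaffold1004:127501-130000, in which 30 CpG sites were spread over 2.5 kb. Over the whole run embryos of 24 hpf had 92.7% and 94.7%, those of 48 hpf 89.7% and 91.7%, those of 72 hpf 93.1% and 94.2%, and the adult 91.2% and 89.9%. Single windows of the run lay between 83.1% and 100%. Their flanks were lower in the adult, with 81.2% to 82.3% against 87.9% to 91.0% in embryos. A run of 4, Scaffold1991:165501-167500, had 22 sites and a level of 89.97% to 96.8% in the 8 libraries, the highest in adult replicate 1. Its flanks were at 87.6% to 88.7% in embryos and 89.1% to 90.7% in the adult.

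The surroundings of stable CpG-poor windows were methylated too. No surrounding window had a part in the choice, but they were read in the same 8 libraries that chose the stable windows. Flanks were the windows with 4 or more sites and enough reads that lay 1 to 5 kb from a stable CpG-poor window and were not stable CpG-poor windows themselves, 21228 windows in all. Flanks averaged 80.3% ± 0.657 for 24 hpf, 78.6% ± 0.733 for 48 hpf, 80.1% ± 0.351 for 72 hpf and 74.2% ± 0.585 for the adult (SD, n = 2 each). The adult libraries, at 74.7% and 73.8%, lay below all embryo libraries, which ranged from 78.1% to 80.8%. The difference was -5.43 points (two-sided exact permutation test, p = 0.0357, adjusted 0.051), and -6.31 points without 24 hpf replicate 2. At a level of 90% in place of 80% it was -2.89 points. Where nearby windows are alike, high flanks follow from the choice at 80% or more in all libraries, the adult ones included. The size of the adult difference around these windows thus depends on that choice, and the exact p does not take it into account.

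Around CpG-poor windows at 20% or less in all libraries, the flanks were almost without methylation. Their level was 5.16% ± 0.604 over the embryo libraries (SD, n = 6) and 4.43% ± 0.0410 over the adult ones (SD, n = 2), and the flanks of stable CpG-poor windows were higher by 73.5 points on average, in 8 of 8 libraries (two-sided exact sign-flip test, p = 0.00781, the smallest 8 libraries can give, adjusted 0.0391). Without 24 hpf replicate 2 the difference was 70.8 points. The 2 classes were chosen at opposite levels in these same 8 libraries. Where nearby windows are alike, a difference of this direction in every library follows from that choice, and the p-value gives it no further support. The surroundings of the 2 classes also differed in CpG number. Over all windows within 5 kb, with enough reads or not, the median was 7 sites per 500 bp around stable CpG-poor windows and 10.8 around unmethylated ones. Stretches without a listed site or beyond a scaffold end counted as 0 sites. Of the 4323 stable CpG-poor windows with at least 4 windows measured within 5 kb, 834 (19.3%) had any such window at 20% or less in all libraries and 89 (2.06%) had 50% or more of them so. Among unmethylated CpG-poor windows these shares were 99.02% and 94.6%.

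Isolated cases existed. In Scaffold153:330501-331000, embryos of 24 hpf had a level of 92.5% and 93.8% over 7 CpG sites, those of 48 hpf 91.3% and 93.8%, those of 72 hpf 95.4% and 96.1%, and the adult 84.2% and 85.3%, from 65 to 230 reads. The 9 windows measured around it had a mean level of 0.386% in embryos and 0.233% in the adult. Its sites lay between positions 330712 and 330803, within the window and away from its borders. In Scaffold194:273001-273500, with levels of 82.9% to 96.9%, the flanks stood at 13.2% in embryos and 9.20% in the adult. Both windows were lower in the adult libraries than in every embryo library.

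Compared with stable windows of 8 to 15 sites, the flanks of stable CpG-poor windows were slightly more methylated. With both kinds of stable window left out of the flanks, the level was 75.3% ± 0.991 against 74.5% ± 1.03 in embryos (SD, n = 6) and 68.3% ± 0.595 against 66.3% ± 0.554 in the adult (SD, n = 2). The mean difference of 1.03 points was positive in 8 of 8 libraries (two-sided exact sign-flip test, p = 0.00781, adjusted 0.0391). In directly adjacent windows it was 0.261 points, and without 24 hpf replicate 2 it was 0.956 points. Every library was read on the same 15303 and 41365 flank windows. The p-value thus measures the spread between libraries, and whether other windows of the 2 kinds would differ was not tested.

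The flanks of stable and embryo-only CpG-poor windows differed in the adult far more than in the embryos. With both classes left out of the flanks, the embryo level was 79.1% ± 0.955 around stable and 80.6% ± 1.07 around embryo-only windows (SD, n = 6), whereas the adult level was 74.4% ± 0.578 and 63.5% ± 0.479 (SD, n = 2). The adult minus embryo difference was 12.5 points higher around stable windows (two-sided exact permutation test on the per-library difference, p = 0.0357, adjusted 0.051), and 10.3 points higher without 24 hpf replicate 2. Averaged over all 8 libraries the 2 kinds of flank differed by 1.56 points (two-sided exact sign-flip test, p = 0.5, adjusted 0.5), by 1.68 points without 24 hpf replicate 2, with a difference of -1.95 to -1.30 points in the embryo libraries and 10.99 and 10.85 points in the adult. In directly adjacent windows the mean difference was 4.91 points (exact p = 0.00781), and without adult replicate 1 it was -0.199 points. The 2 classes were separated by their own level in these same adult libraries. Where nearby windows are alike, the direction follows from that choice, and the exact p-values give it no further support. The flanks show how far along the genome a separation of the same direction was seen.

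It was seen up to 10 kb, the farthest distance measured. Directly beside the windows, 0.5 kb away, the adult minus embryo difference was -3.09 points around stable and -19.74 points around embryo-only windows. At 5 kb it was -4.64 and -18.3 points, and at 10 kb -5.54 and -16.3 points. The embryo level fell with distance around both, from 87.1% at 0.5 kb to 65.3% at 10 kb around stable windows and from 86.3% to 71.3% around embryo-only windows.

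**Figure D4:**
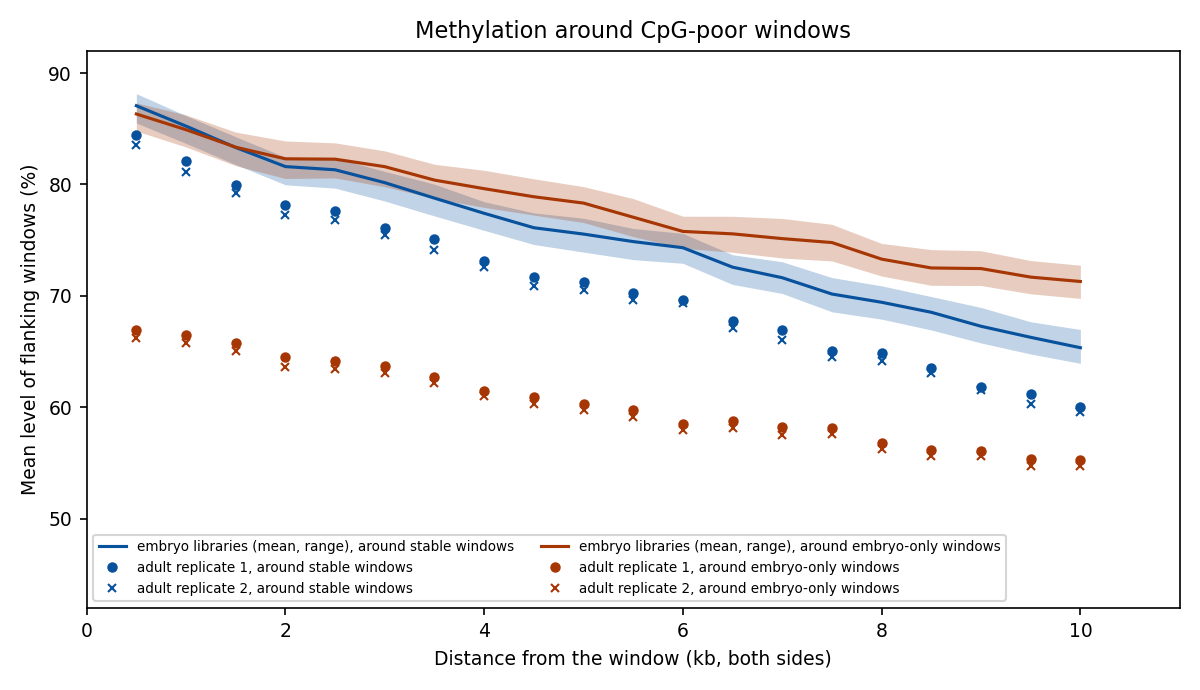
Mean methylation level in percent of windows at increasing distance in kb on either side of stable (blue) and embryo-only (red) CpG-poor windows. Lines are means of the 6 embryo libraries with their range shaded, and circles and crosses are the adult replicates; at 0.5 kb the adult minus embryo difference is -3.09 points for stable and -19.74 points for embryo-only windows.

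Single windows near stable CpG-poor windows were called lower in the adult at shares that rose with distance, a description across windows with no test. The stable CpG-poor windows were themselves chosen at 80% or more in the adult libraries used for the calls. Where nearby windows are alike, low shares close to them follow from that choice. Among windows of 8 to 15 sites at 80% or more at 24 and 48 hpf, the share called lower in the adult was 4.16% directly beside a stable CpG-poor window (82 of 1971), 5.53% at 1 to 2 kb, 9.79% at 2.5 to 5 kb, 15.5% at 5.5 to 10 kb, and 33.7% farther away or on scaffolds with none (10396 of 30885). Windows of 16 or more sites had 1.41%, 2.39%, 5.06%, 7.27% and 18.8% over the same distances. Over all distances the share was 26.4% with 8 to 15 sites and 14.98% with 16 or more, beside the 24.8% of all windows so chosen, stable CpG-poor windows included. Windows of 8 to 15 sites were read more deeply near stable CpG-poor windows, with a median of 140 reads in the adjacent ones and 111 in the farthest, and the part of depth was not tested. Over 1 to 5 kb the share was 7.79% (593 of 7612), and 9.97% without 24 hpf replicate 2. It was 5.40% and 5.22% without the first and the second 72 hpf replicate, where a single library stands for that stage and is assumed to vary like the libraries of the other groups.

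**Figure D5:**
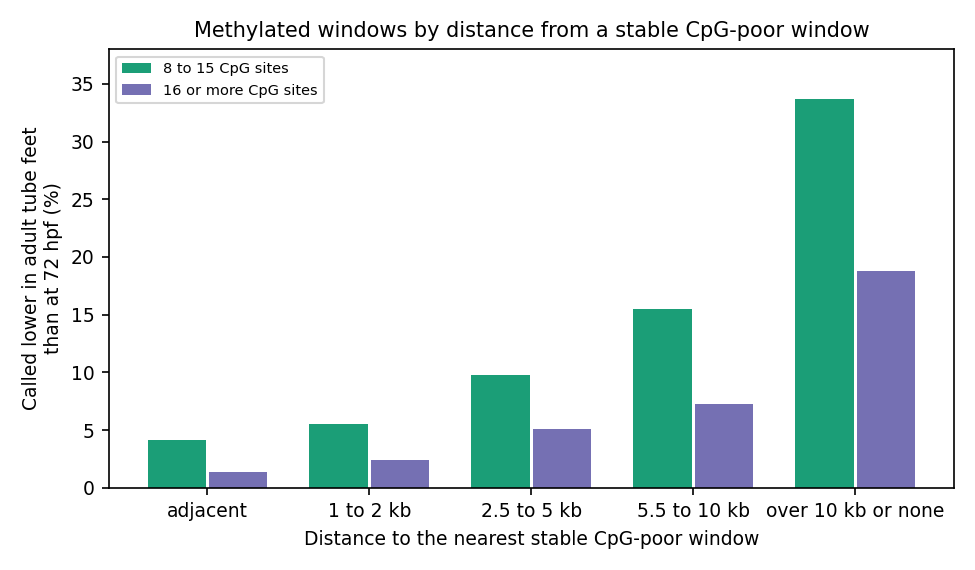
Percent of windows called lower in adult tube feet than at 72 hpf, by distance in kb to the nearest stable CpG-poor window, for windows of 8 to 15 (green) and 16 or more CpG sites (purple) at 80% or more in all 24 and 48 hpf libraries. The share rises from 4.16% beside a stable CpG-poor window to 33.7% over 10 kb away, or on scaffolds with none, for windows of 8 to 15 sites. Stable CpG-poor windows were chosen at 80% or more in the same adult libraries.

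Whether stable windows were read more or less deeply than unmethylated CpG-poor windows depended on the read minimum. Stable CpG-poor windows had 11.6 and 12.2 reads per listed site for 24 hpf, 16.3 and 13.6 for 48 hpf, 12.4 and 13.9 for 72 hpf, and 11.9 and 11.8 for the adult. The ratio to unmethylated CpG-poor windows was 0.937 and 1.19 for 24 hpf, 0.928 and 1.01 for 48 hpf, 0.963 and 0.895 for 72 hpf, and 0.940 and 0.889 for the adult. It was above 1 in 24 hpf replicate 2 and 48 hpf replicate 2 and below 1 in the 6 other libraries. The mean log2 ratio was -0.05 (two-sided exact sign-flip test, p = 0.312, adjusted 0.391). Without 24 hpf replicate 2, on the windows usable then, it was 0.16 (exact p = 0.0156).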

How the data were processed

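Methylation at CpG sites was measured in 8 libraries by MethylC-seq. Per the file headers, the authors' calls came from MethylDackel on the build Spur3.1 in linear scaffolds with lambda phage, from merged and deduplicated reads. Trimmomatic and Picard are named in the submitters' processing notes. The aligner, versions and filters on reads were not given in the sources used here. Every deposited file gives the level as a percent cut to a whole number, which was not used, and the deposited counts of methylated and unmethylated reads, which were. Titles gave each sample its group and replicate number, and per-sample columns of no sample numbered 0.

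A window's level was its methylated reads over all its reads at CpG sites, and means over windows weighted windows equally. Lambda was left out. Group values were compared over libraries by exact permutation tests, with Benjamini-Hochberg adjustment over 10 tests. Windows of 4 or more sites and 20 or more reads in each library were fitted by quasi-binomial logistic regression with group as the factor. The dispersion was moderated with limma 3.58.1 (squeezeVar, R 4.3.3), a window with a mean level under 2.5% or over 97.5% had a p-value of 1, and p-values were adjusted over 367598 windows. The fit was also run on simulated data in which all windows had the same excess spread between libraries, and no result here rests on that run. Other work used Python 3.11.15, numpy 2.4.6, pandas 2.3.3 and scipy 1.17.1.

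Named windows were the 2 with the highest and the 2 with the lowest lowest level, the 2 just under 80%, the 2 highest and 2 lowest in adult minus embryo difference among those with at least 50 reads in each library, the 2 longest runs, the 2 with the lowest flanks over at least 8 windows, and the 2 with most reads. Sites named in the text were chosen after their values were seen. The windows, classes and tests were chosen with earlier results of these data known. The tests of stable against embryo-only windows, of CpG-poor against other windows in libraries left out of the choice, and the shares by distance were added after the data had been seen.

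Alternatives were other read minimums and level limits, shifted windows, sites weighted equally, sites listed in at least 4 libraries, other flanks, a replicate block, limma on log2 ratios and leaving out each library. Tests over 2 replicates per group measure the spread between these libraries. Reads carry no molecular identifiers and a read over several sites counts at each, so intervals and limits cover counting error only and are too narrow. Sequences of the windows were not analysed here.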

Additional observations from a re-analysis of the deposited data

Results flagged for a closer look

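In 1 of the 10 measures examined, a single embryo library stood apart from the other embryo libraries. The windows 1 to 5 kb from unmethylated CpG-poor windows had a mean level of 6.33% in 24 hpf replicate 2, against 4.67% to 5.27% in the 5 other embryo libraries, and the gap was 0.639 of the whole range, above Dixon's 95% critical value for 6 samples. Chance alone marks about 0.05 of such groups. The same library had a pooled level of 42.2% and the fewest listed sites of all libraries. Around stable CpG-poor windows its flank level, 80.8%, was the highest of the embryo libraries but within Dixon's limit.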

How the results depend on the processing

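The number of stable CpG-poor windows depended on the minimum: 9162 with 10 reads, 2149 with 40 reads, 305 at 90% and 11689 at 70%, and 5673 to 10772 with 1 library left out, the highest without 24 hpf replicate 2. Leaving out an adult library left an adult arm of 1, for which the smallest exact p is 0.143, reached in each of the 5 adult comparisons. With 1 library left out, the adult minus embryo difference ranged from -19.3 to -18.4 points in level and -48.8 to -46.5 in share, the change relative to windows of 8 to 15 sites from -3.85 to -3.62 (-4.24 at 70%, -2.09 at 90%), the flank difference from -6.66 to -5.31 (-7.29 at 70%, -2.89 at 90%) and its contrast between stable and embryo-only windows from 10.3 to 13.5. The mean flank difference between those classes ranged from -0.199 to 2.06 and reversed without adult replicate 1, and was 4.91 in adjacent windows. Flanks of stable CpG-poor windows stayed above those of the other 2 classes tested (8 to 15 sites, unmethylated) under each alternative run.

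The read depth ratio to unmethylated windows changed sign most. From -0.05, the log2 ratio became 0.22 with 10 reads, -0.44 with 40 reads, 0.14 at 90% and 10%, -0.16 at 70% and 30%, 0.0071 with sites weighted equally, 0.0040 with sites listed in at least 4 libraries, 0.73 with no minimum and 0.24 as a median, and -0.062 to 0.164 with 1 library left out. The cause was not tested.

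Calls of CpG-poor windows lower in the adult than at 72 hpf numbered 8736 of 27172 with 10 reads, 1732 of 5241 with 40 reads, and 3412 to 10643 with 1 library left out, where a lone library of a group is assumed to vary like the others. Of windows of 8 to 15 sites 1 to 5 kb from stable CpG-poor windows, 9.03% were called with 10 reads, 6.02% with 40 reads, 5.10% with limma, and 5.22% to 9.97% with 1 library left out. Sites at 80% or more in every library made up 60.7% with 5 reads and 73.3% with 15. The correlation of deviations between same-numbered samples was 0.258 for 24 and 48 hpf, 0.0847 for 24 and 72 hpf and 0.0635 for 48 and 72 hpf. It was from -0.0036 to 0.00722 for the pairs of an embryo group with the adult. The numbers were not taken to pair the samples, and the tests treat the embryo libraries as separate. The labels do not say whether same-numbered embryo libraries share a source. With the replicate number as a block, 4843 windows were called in place of 4929.

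Depth limits single sites and windows of 4 or 5 CpG sites most, since few of them reach 20 reads in every library.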
